A study of Mus musculus with 12 samples.

Results

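The genes described here are 59 named genes of mouse chromosome 9, chosen by symbol because they lie between about 36 and 50 Mb on GRCm38, around the diabetes locus Idd2. The count table of 28188 genes gave values for 57 of them, and Fez1 and Pou2f3 were not analysed here. The 57 genes run from Chek1 at 36708482 to Ncam1, which ends at 49798925, a stretch of 13.1 Mb. NOD mice develop autoimmune diabetes spontaneously, and NOD.Idd2 mice are NOD mice whose Idd2 locus comes from B10 mice. RNA came from B cells or dendritic cells isolated from the spleens of mice aged 12 weeks, with no treatment named in the labels, and was sequenced in 3 libraries for each strain and cell type, 12 in all. The sources used here do not give the limits of the B10 segment, so the genes are described by position and not as lying inside or outside it.

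A congenic strain carries a stretch of chromosome from a donor strain on the background of another, so all genes of the stretch are inherited together with the locus of interest. The genes named here share a position rather than a pathway. Among them are the CD3 chains through which the T cell receptor signals, sugar phosphate transporters of the endoplasmic reticulum, ubiquitin ligases and the enzymes that reverse their work, adhesion proteins of the immunoglobulin family, and general factors of chromatin, RNA and vesicle traffic that most cells use.

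Total counts per B cell library were 40344883 to 44632276 counts and per dendritic cell library 22769062 to 30337812, apart from replicate 3 of NOD.Idd2 dendritic cells with 8663421. Replicate 3 of both B cell groups stood apart from replicates 1 and 2, with a chi-square per gene of 37.3 to 42.8 against 7.28 to 7.78 between replicates 1 and 2. The labels do not say whether libraries came from separate animals, so the p-values rest on the spread among these libraries, which may be technical. Cd79a, a subunit of the B cell antigen receptor, was at 1431 to 1810 CPM (counts per 1000000 counts of a library, after scaling) in B cells and 1.70 to 7.32 CPM in dendritic cells, and Itgax, which encodes CD11c, was at 2.34 to 3.28 and 1940 to 2285 CPM. Xist had 7 or 8 counts in all per dendritic cell group and 4 Y-linked genes, Uty and Ddx3y among them, were at 0 counts throughout the B cell libraries, so the cell types also differed in sex, and each strain comparison was within 1 sex.

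Of the 57 genes, 37 had an entry among the RefSeq promoter sequences. The 250 bases before the RefSeq start (GRCm38.p6) are shown for Slc37a2, Usp2 and Jaml, which changed between the strains. Gramd1b, Zbtb16 and Tmprss13 are named only. Capitals mark matches on either strand to 3 motifs of promoters. A GC box was searched with the letters GGGCGG. For the second motif, the box named after its letters, CCAAT was searched. A TATA box was searched with the letters TATAAA. An E-box, searched as CACGTG, had no match in these windows, and no matches overlapped each other.
Slc37a2, chr9:37255739-37255988, minus strand: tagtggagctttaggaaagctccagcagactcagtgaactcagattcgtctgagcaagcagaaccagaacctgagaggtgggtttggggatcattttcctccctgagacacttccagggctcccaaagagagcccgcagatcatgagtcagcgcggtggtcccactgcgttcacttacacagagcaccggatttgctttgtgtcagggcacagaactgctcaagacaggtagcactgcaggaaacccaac
Usp2, chr9:44084670-44084919, plus strand: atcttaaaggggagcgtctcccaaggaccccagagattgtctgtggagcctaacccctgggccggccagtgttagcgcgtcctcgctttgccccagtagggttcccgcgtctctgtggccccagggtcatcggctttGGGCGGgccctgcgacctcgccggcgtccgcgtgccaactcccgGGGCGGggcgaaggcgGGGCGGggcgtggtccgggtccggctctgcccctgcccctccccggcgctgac
Jaml, chr9:45078933-45079182, plus strand: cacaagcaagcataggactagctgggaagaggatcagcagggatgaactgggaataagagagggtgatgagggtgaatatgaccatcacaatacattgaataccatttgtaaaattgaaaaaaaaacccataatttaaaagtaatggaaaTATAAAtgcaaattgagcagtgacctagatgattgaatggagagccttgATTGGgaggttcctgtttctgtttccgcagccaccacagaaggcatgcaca

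The 3 windows differ in composition. That of Usp2 holds 25 CpG and is 71.6% G or C, with GC boxes 113, 69 and 53 bases before the start. It begins inside the span that GENCODE gives for the gene, 44067021 to 44095627. The window of Slc37a2 holds 6 CpG at 53.6% G or C and none of the 4 motifs, and that of Jaml holds 1 CpG at 40.8% G or C, with a CCAAT box 51 bases and a TATA box 100 bases before the start. Over all 32851 RefSeq windows of the same length the median was 6 CpG (quartiles 2 and 16), and 32.7% held a GC box, 33.8% a CCAAT box, 12.4% a TATA box and 6.02% an E-box. These are descriptions of letters, not of bound sites.

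Between the strains, few of these genes changed. In B cells, Slc37a2 and the transmembrane protease gene Tmprss13 rose in NOD.Idd2 and the deubiquitinase gene Usp2 fell. Tested with edgeR's quasi-likelihood method, p-values adjusted over all genes by Benjamini-Hochberg, that is 3 of 49, or 6.12%, against 0.16% of all 15011 genes. The 2 that rose are 4.08%, against 0.0733% of all genes, and the 1 that fell is 2.04%, against 0.0866%. In dendritic cells, Slc37a2 and the transcription factor gene Zbtb16 rose, and Gramd1b and Jaml fell: 4 of 50 tested, or 8.0%, against 1.29% of all 14441 genes. Here 4.0% rose and 4.0% fell, against 0.665% and 0.623%. Tmprss13 and Usp2 in B cells and Zbtb16 in dendritic cells passed the filter on low counts only through the strain where they are higher. Passing this way favours a difference without fixing it, so their calls support nothing further. In the other strain, 2 libraries reached the minimum for Usp2 and for Zbtb16, and 0 for Tmprss13. Without the genes that passed through 1 strain, which in B cells include the uncalled Oaf, 1 of 46 was called in B cells and 3 of 49 in dendritic cells. The share over all genes without such genes was not computed, so these counts have no background beside them. The tested genes had a median log2 fold change (NOD.Idd2 minus NOD throughout) of 0.0004 in B cells and 0.0093 in dendritic cells, beside 0.0066 and 0.0006 over all genes. Of the 45 genes tested in both cell types, 42 were within 1.5-fold in both.

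**Figure D1:**
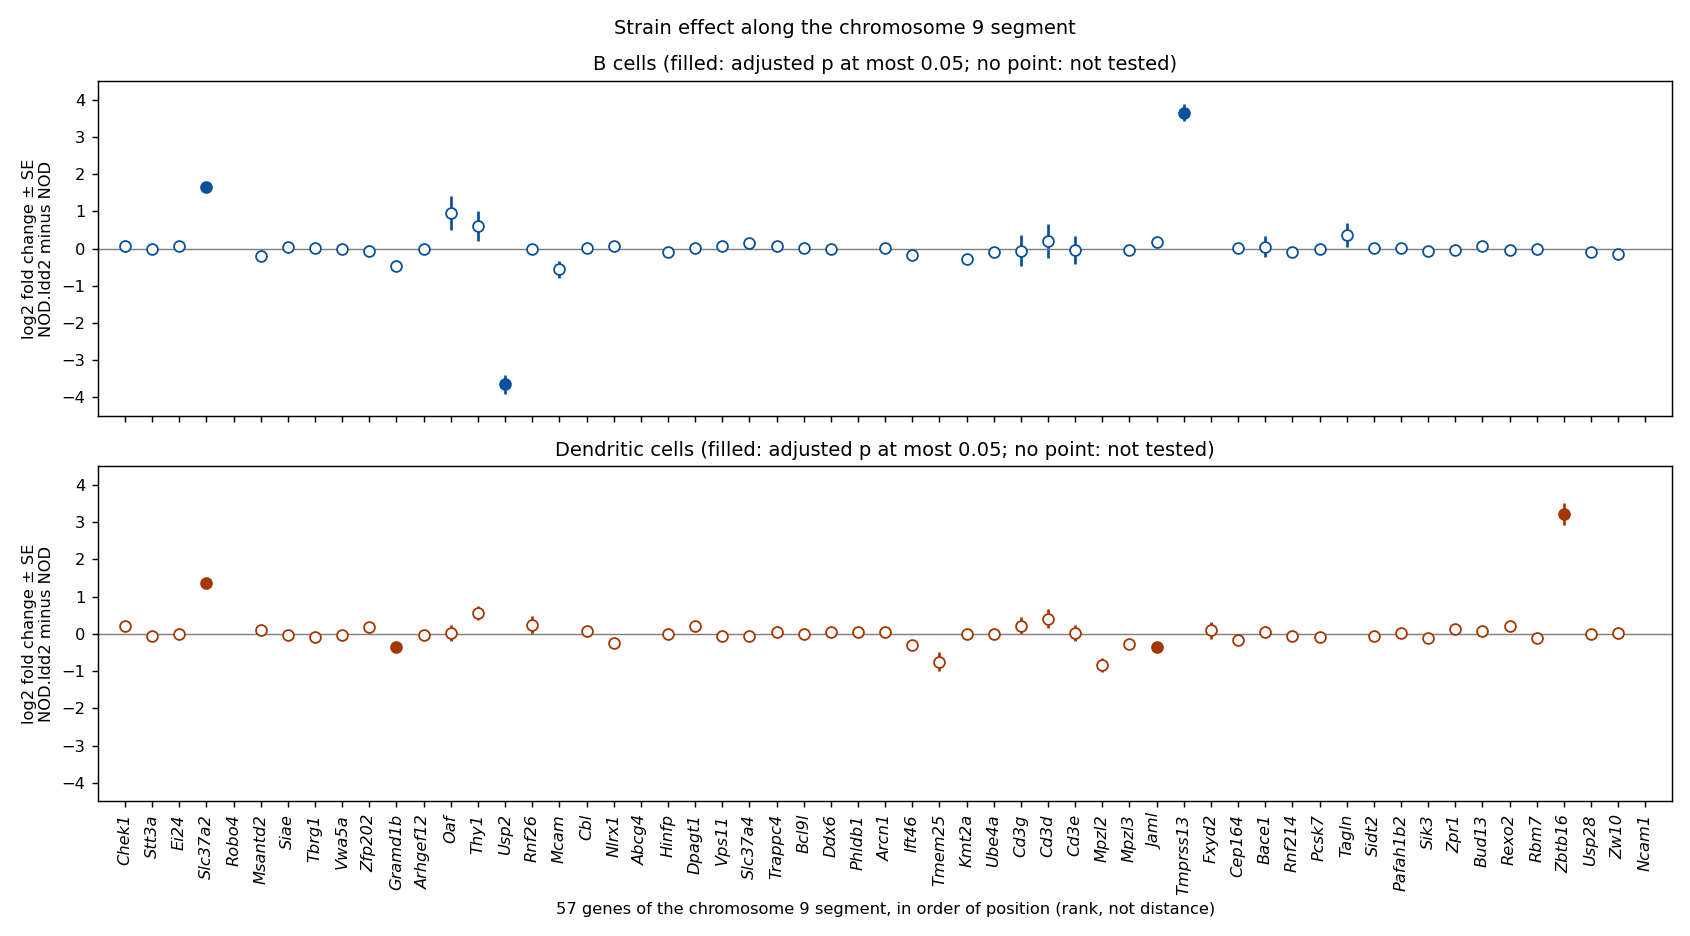
Log2 fold change (NOD.Idd2 minus NOD) with its SE for each gene in order of position, in B cells (upper panel) and dendritic cells (lower panel), from 6 libraries each; filled points passed an adjusted p of 0.05 and genes without a point were not tested. Most points lie near 0, while Slc37a2 is raised in both panels, Tmprss13 (3.65) and Usp2 (-3.65) stand out in B cells and Zbtb16 (3.22) in dendritic cells.

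Slc37a2 (37227585 to 37255738) was near the low end of the stretch, Gramd1b was at 40293233 to 40531383, Usp2 at 44067021 to 44095627, Jaml at 45079183 to 45108534, Tmprss13 at 45319100 to 45347581 and Zbtb16 (48654297 to 48836222) near the high end. Of the neighbours of Usp2, Thy1 and Rnf26 were uncalled in both cell types, as were Mcam and Cbl where tested. Among the other tested genes of the same stretch, which are not in the list described here, 34.4% of 64 differed by over 1.5-fold in B cells, against 10.2% of the 49 listed genes and 3.4% of all genes. In dendritic cells the shares were 31.7% of 63, 8.0% of 50 and 4.45%. The list was chosen with earlier results known, and the shares are not matched for expression level. They describe these genes only.

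Slc37a2, an exchanger of sugar phosphates and phosphate in the endoplasmic reticulum membrane, was the only gene of the list called in both strain comparisons. In NOD B cells it was at 27.2, 29.0 and 34.6 CPM, and in NOD.Idd2 B cells at 92.0, 102 and 90.8 CPM. In dendritic cells it was at 10.9, 16.5 and 14.5 CPM in NOD and 37.9, 37.4 and 31.4 CPM in NOD.Idd2. In each cell type every NOD.Idd2 library lay above every NOD library. The log2 fold change was 1.65 (SE 0.10, adjusted p = 0.0016, edgeR) in B cells, from 30.3 ± 3.82 to 94.9 ± 6.07 CPM (SD, n = 3). In dendritic cells it was 1.38 (SE 0.12, adjusted p = 0.00014, edgeR). The difference between these effects was -0.29 (SE 0.18) and was not called (adjusted p = 0.738 in the edgeR fit of 12 libraries). The 241 exon bases that Slc37a2 shares with Gm48081 on the opposite strand belong to a gene with 33 counts over all 12 libraries.

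The other SLC37 family members, Slc37a1, Slc37a3 and Slc37a4, passed no test between the strains, so that 1 of 4 family genes was called in each cell type. Slc37a4, the glucose-6-phosphate transporter of the endoplasmic reticulum, lies on the same stretch and was at 18.1 ± 1.27 CPM in NOD and 20.1 ± 0.724 CPM in NOD.Idd2 B cells (adjusted p = 0.793, edgeR). The other glycan genes of the stretch were also uncalled: Stt3a, a catalytic subunit of the oligosaccharyltransferase, Dpagt1, which starts the lipid-linked precursor of N-glycans, and Siae, a sialic acid esterase. None of the 29 tested genes of N-glycan precursor assembly and transfer was called in either strain comparison (edgeR, lowest adjusted p = 0.758 in B cells and 0.155 in dendritic cells).

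**Figure D2:**
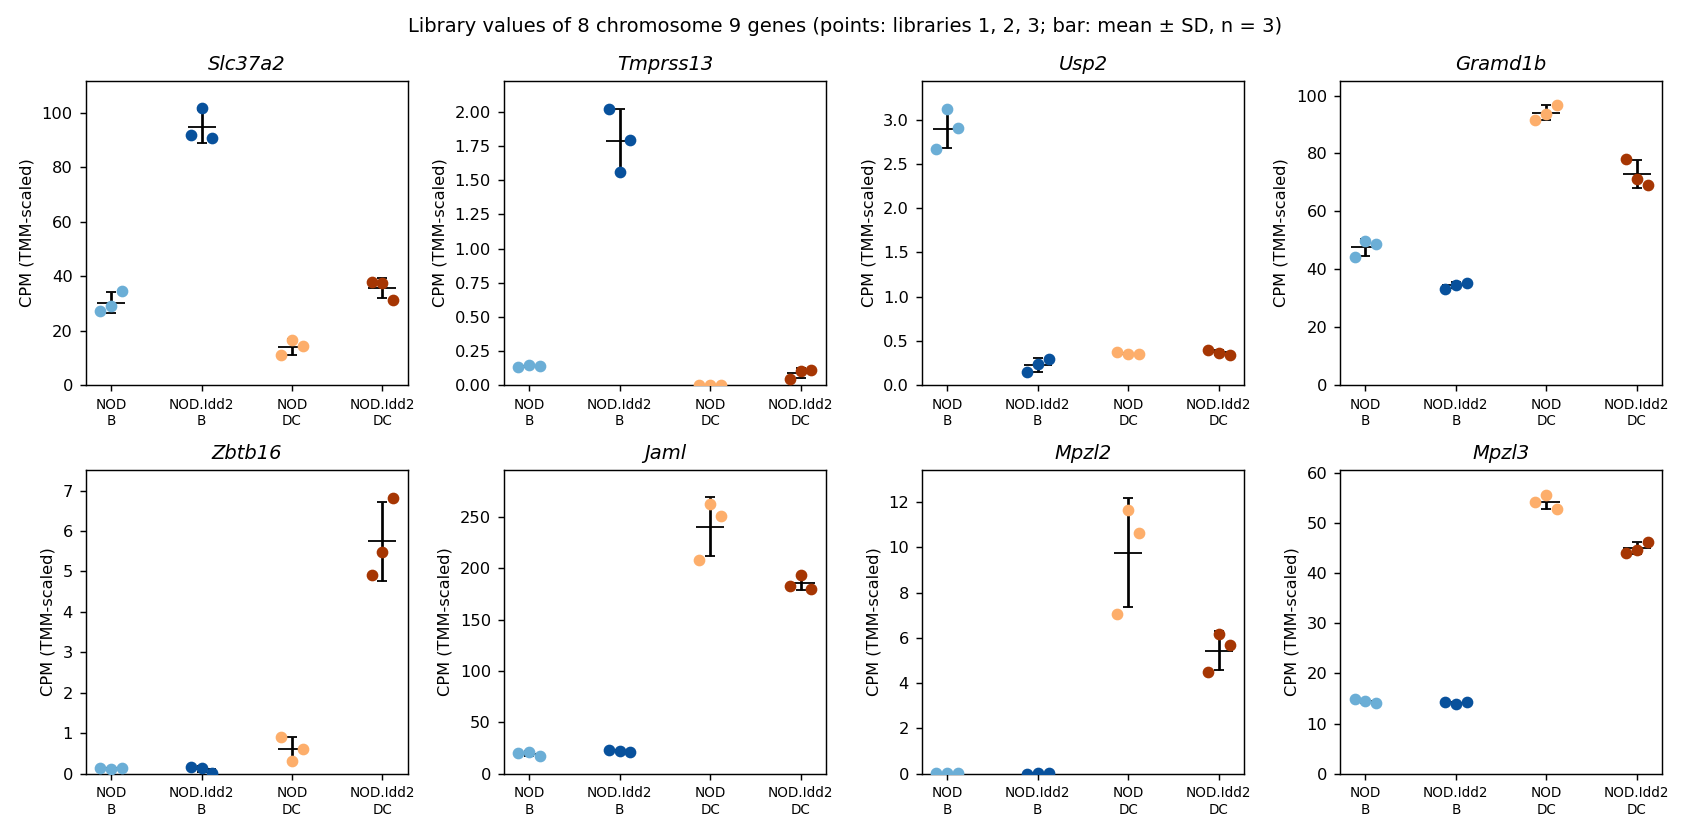
CPM of 8 genes in each library, by group, each panel on its own axis from 0; points are libraries 1, 2 and 3 and the bar is the mean with its SD (n = 3). Slc37a2 is higher in NOD.Idd2 in both cell types, the B cell groups separate for Tmprss13 and Usp2, and Jaml, Mpzl2 and Mpzl3 are lower in NOD.Idd2 dendritic cells.

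Usp2, a deubiquitinase known for its daily rhythm in many tissues, had 120, 129 and 125 counts in NOD B cells and 6, 10 and 13 in NOD.Idd2 B cells. It fell from 2.90 ± 0.224 to 0.228 ± 0.0759 CPM, a log2 fold change of -3.65 (SE 0.25, adjusted p = 0.0026, edgeR). In dendritic cells it had 9, 9 and 9 counts in NOD and 9, 11 and 3 in NOD.Idd2, below the filter of that comparison, and the ranges of 0.347 to 0.369 and 0.341 to 0.399 CPM overlapped. The strain effect differed between the cell types by 3.72 on the log2 scale (SE 0.39, adjusted p = 0.0030, edgeR fit of 12 libraries). In this fit it was the only gene of the list called for that difference, 1 of 54 or 1.85% against 0.109% of all 16588 genes. Cell type and sex cannot be told apart in that difference. The other genes of ubiquitin handling were uncalled in both strain comparisons, among them Cbl, a ligase that limits receptor signalling, at 494 ± 15.3 and 497 ± 18.3 CPM in NOD and NOD.Idd2 B cells.

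Tmprss13, a serine protease anchored in the cell membrane, had 6 counts in each NOD B cell library and 82, 66 and 78 in NOD.Idd2 B cells, and it passed the filter only through the NOD.Idd2 group. Its level rose from 0.139 ± 0.00578 to 1.79 ± 0.230 CPM, a log2 fold change of 3.65 (SE 0.22, adjusted p = 0.0016, edgeR). In dendritic cells it had 0 counts in every NOD library and 1, 3 and 1 in NOD.Idd2, and was not tested. With the NOD group set to a floor of 3 counts in all, the ratio was 2.07. That ratio leaves out the counting error of the NOD.Idd2 group and is no bound. The other proteases of the stretch, Bace1 and Pcsk7, were uncalled. In the B cell comparison no marker list of another cell type had a called gene, but all 8 tested neutrophil genes, all 12 natural killer cell genes and all 5 tested erythroid genes had a log2 fold change below 0. Of the 21 tested T cell genes 19 were above 0, at a median log2 fold change of 0.22. Without the genes of this stretch 17 of 17 were above 0, at a median of 0.25. Those 17 summed to 253, 261 and 275 CPM in NOD B cells. In NOD.Idd2 B cells they summed to 340, 241 and 309 CPM, so that replicate 2 lay below every NOD library. The neutrophil sum was 9.35 to 32.1 CPM in NOD and 8.77 to 12.8 CPM in NOD.Idd2. The part of these cell types in the B cell results was not tested. In bulk samples such as these, fewer cells of a type and less RNA per cell cannot be told apart.

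Gramd1b, an endoplasmic reticulum protein that takes up cholesterol from the plasma membrane, fell in NOD.Idd2 dendritic cells, and whether it was called in B cells depended on the fit. In dendritic cells it was at 91.7, 93.5 and 96.9 CPM in NOD and 78.2, 71.3 and 69.2 CPM in NOD.Idd2, with no overlap. It fell by 0.35 on the log2 scale (SE 0.06, adjusted p = 0.0106, edgeR). The call did not hold without NOD.Idd2 replicate 2 (adjusted p = 0.104) or replicate 3 (0.0758). In B cells it was at 44.3, 49.8 and 48.9 CPM in NOD and 33.3, 34.7 and 35.3 CPM in NOD.Idd2, again with no overlap, at a log2 fold change of -0.47 (SE 0.06), which missed the threshold at an adjusted p of 0.0587 in edgeR and passed it with the replicate number as a block (0.00034).

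In B cells the block raised the calls from 3 to 5 of 49, or 10.2% against 1.04% of all genes, and added Kmt2a beside Gramd1b. Kmt2a, a histone H3 methyltransferase, was at 805, 776 and 888 CPM in NOD and 630, 719 and 673 CPM in NOD.Idd2 B cells. Every NOD library was above every NOD.Idd2 library, with a log2 fold change of -0.29 (SE 0.07), an adjusted p of 0.557 in edgeR and of 0.0176 with the block. In dendritic cells its ranges of 327 to 395 and 334 to 385 CPM overlapped. Over the list, the ranges of the strains did not overlap for 10 of 49 genes in B cells, or 20.4% against 12.8% of all genes, and for 16 of 50 in dendritic cells, or 32.0% against 16.5%.

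Zbtb16 encodes PLZF, the transcription factor that directs the development of natural killer T cells and innate lymphoid cells. In dendritic cells it had 22, 8 and 16 counts in NOD and 111, 165 and 60 in NOD.Idd2, which is 0.902, 0.308 and 0.616 CPM against 4.92, 5.49 and 6.82 CPM. The lowest NOD.Idd2 library was above the highest NOD library, and the log2 fold change was 3.22 (SE 0.29, adjusted p = 0.00014, edgeR). In B cells it had 1 to 7 counts per library and was not tested. The difference of effects between the cell types was 3.46 (SE 0.71, adjusted p = 0.139, edgeR) and was not called. It passed in 2 of 5 alternatives other than leaving out 1 library. The natural killer cell list summed to 397 to 437 CPM in NOD and 409 to 428 CPM in NOD.Idd2 dendritic cells, with 0 of 11 genes called, 10 of 11 above 0 and a median log2 fold change of 0.34. Between dendritic and B cells in NOD, 3 of its 12 genes were above 0 and 9 below, so its sum need not follow natural killer cells. The list of CD3 chains and other T cell receptor genes summed to 15.9 to 28.0 and 25.4 to 30.7 CPM. Of its 7 genes 0 were called and all 7 were above 0, at a median log2 fold change of 0.22. The whole T cell list of 21 genes summed to 593 to 645 CPM in NOD and 601 to 620 CPM in NOD.Idd2. Of those 21 genes 0 were called, 17 were above 0 and 4 below. The part of such cells in the Zbtb16 result was not tested. The other tested chromatin and transcription genes, Bcl9l, Zfp202, Hinfp, Kmt2a, Msantd2 and Tbrg1, were uncalled in dendritic cells.

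Jaml, Mpzl2 and Mpzl3 are neighbours that code for immunoglobulin-family membrane proteins, and each was lower in NOD.Idd2 dendritic cells with no overlap of the groups. Jaml, an adhesion protein of migrating leukocytes, was at 208, 263 and 251 CPM in NOD and 183, 193 and 180 CPM in NOD.Idd2. It fell by 0.36 on the log2 scale (SE 0.07, adjusted p = 0.0410, edgeR), and the call was lost in the fit of all 12 libraries (adjusted p = 0.117) and without any library other than NOD replicate 1 (0.0597 to 0.208). Mpzl3 was at 54.1, 55.6 and 52.8 CPM against 44.0, 44.5 and 46.2 CPM, and Mpzl2 at 7.05, 11.6 and 10.6 CPM against 4.48, 6.16 and 5.68 CPM. Both missed the threshold, at adjusted p of 0.0609 and 0.0654 in edgeR, and each passed it in 3 of 6 alternatives other than leaving out 1 library. In B cells Jaml and Mpzl3 were uncalled, and Mpzl2 had 0 to 2 counts per library. The neutrophil list summed to 66.5 to 77.2 CPM in NOD and 47.8 to 61.8 CPM in NOD.Idd2 dendritic cells, with 1 of 7 genes called, Mmp9, which fell. Of the 7, 5 had a log2 fold change above 0 and 2 below, at a median of 0.35. Between dendritic and B cells in NOD, 1 of 9 tested genes of this list was above 0 and 8 were below. The sum of the list therefore need not follow neutrophils. The part of neutrophils in the Jaml result was not tested. Jaml and Mpzl2 share 397 and 2138 exon bases with the opposite-strand genes Gm10684 and Gm48840, which had 93 and 116 counts over all libraries.

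The next uncalled genes by p in dendritic cells were Ift46, Tmem25 and Thy1. Ift46, a subunit of the transport complex of cilia, was at 26.9 ± 2.71 CPM in NOD and 21.7 ± 0.898 CPM in NOD.Idd2 (adjusted p = 0.151, edgeR), and Tmem25 at 2.69 ± 0.244 and 1.55 ± 0.482 CPM (adjusted p = 0.239). In B cells, after Kmt2a, the next were Zw10, a kinetochore protein, at 71.0 ± 3.46 and 64.2 ± 1.76 CPM (adjusted p = 0.750), Msantd2 at 36.5 ± 2.05 and 31.6 ± 3.25 CPM (0.758), and the adhesion molecule Mcam at 1.35 ± 0.0931 and 0.920 ± 0.258 CPM (0.778). At an unadjusted p under 0.05 (edgeR) there were 8 of 49 tested genes of the list in B cells, beside 961 of all 15011. In dendritic cells there were 14 of 50, beside 1638 of all 14441.

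The stretch also carries Cd3e, Cd3d and Cd3g, the signalling chains of the T cell receptor, and Thy1, a T cell surface protein. None was called between the strains or between the cell types. Their sum over the 3 CD3 genes was 14.9, 18.0 and 14.3 CPM in NOD B cells and 25.5, 7.14 and 14.8 CPM in NOD.Idd2 B cells, so that NOD.Idd2 replicate 1 was the highest and replicate 2 the lowest of the 6. The sum of Cd247, Trac, Trbc1 and Trbc2, T cell receptor genes on other chromosomes, was 13.3, 15.9 and 14.6 against 27.7, 8.06 and 20.2 CPM, with the same libraries highest and lowest. In dendritic cells the CD3 sum was 13.8, 7.67 and 13.4 CPM in NOD and 11.3, 14.0 and 13.9 CPM in NOD.Idd2. Thy1 was at 4.16 ± 1.01 and 5.91 ± 0.842 CPM there (adjusted p = 0.257, edgeR). How far the T cell genes follow T cells in the isolated populations was not tested.

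**Figure D3:**
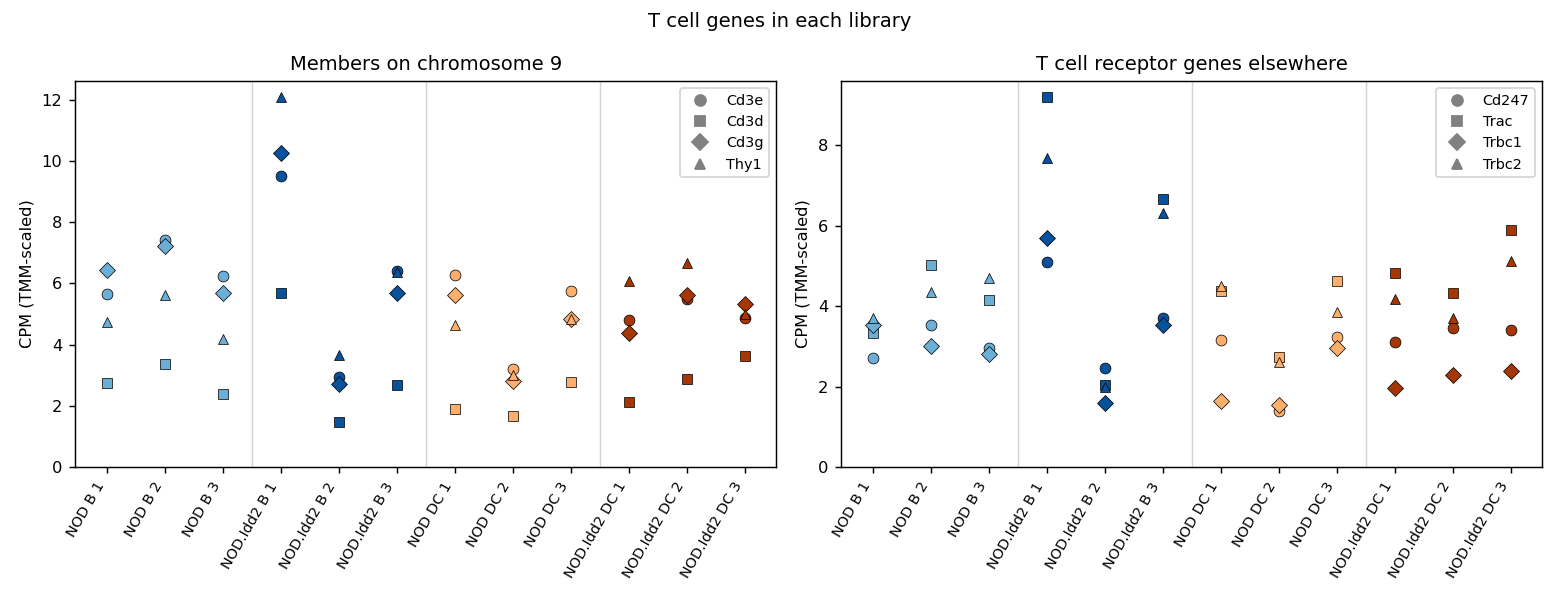
CPM of the 4 T cell genes of the chromosome 9 stretch (left) and of 4 T cell receptor genes elsewhere in the genome (right) in each of the 12 libraries; symbols mark genes and colours the groups. In both panels NOD.Idd2 B cell replicate 1 is the highest B cell library and replicate 2 the lowest.

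None of the 5 genes of RNA handling, the RNA helicase gene Ddx6 among them, and none of the 4 genes of DNA damage and cell division was called in either cell type. Log2 fold changes of the RNA handling genes ran from -0.05 to 0.06 in B cells and from -0.12 to 0.20 in dendritic cells. Arcn1, a subunit of the COPI coat that returns vesicles to the endoplasmic reticulum, was at 243 to 268 CPM in NOD and 248 to 269.7 CPM in NOD.Idd2 B cells. The whole COPI coat had 0 of 8 called in B cells and 0 of 9 in dendritic cells, and the HOPS and CORVET tethers of endosomes, to which Vps11 belongs, had 0 of 8 in each.

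Most genes of the stretch differed between the cell types, as did most genes of the table. Cell type and sex cannot be told apart in these comparisons. In NOD, 43 of 54 tested were called, or 79.6% against 76.4% of all 16588 genes, with 20 higher and 23 lower in dendritic cells, which is 37.0% and 42.6% against 37.7% and 38.7%. In NOD.Idd2 it was 42 of 54, or 77.8% against 75.7%. Both comparisons called 39 of these genes, all 39 in the same direction. Per kilobase of exon, the highest of the 57 genes in NOD B cells were Ddx6 (121 CPM per kb), Kmt2a (49.4) and Cbl (40.1), and in NOD dendritic cells Jaml (77.5), Cbl (71.1) and Ddx6 (62.9).

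The called genes furthest towards dendritic cells, of those reaching 5 CPM, were Mpzl2, Phldb1, Bace1, Jaml, Vwa5a and Nlrx1. Mpzl2 had 3 counts over the NOD B cell libraries and 750 over the NOD dendritic cell libraries, that is 424 times as much (95% counting interval 144 to 2059). Phldb1, which helps anchor microtubules, was at 0.0725 to 0.156 CPM in NOD B cells and 9.36 to 12.3 CPM in NOD dendritic cells, and Bace1, the beta-secretase, at 0.578 to 1.02 and 11.4 to 15.7 CPM. Jaml was at 17.1 to 21.7 CPM in NOD B cells against 208 to 263 CPM. Vwa5a was at 24.2 to 29.2 against 159 to 165 CPM, and Nlrx1, a mitochondrial protein of the Nod-like receptor family, at 3.98 to 4.76 against 22.9 to 29.4 CPM. None of these ranges overlapped between the cell types.

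Of the genes called lower in NOD dendritic cells that reached 5 CPM, Sidt2, a lysosomal membrane protein, was at 190 to 215 CPM in NOD B cells and 77.1 to 93.1 CPM in NOD dendritic cells (log2 -1.27, SE 0.08), and Rnf26, a ubiquitin ligase of the endoplasmic reticulum, at 4.88 to 5.58 and 1.93 to 2.62 CPM. Kmt2a was at 776 to 888 against 327 to 395 CPM, Ddx6 at 907 to 1025 against 476 to 521 CPM, and the deubiquitinase gene Usp28 at 43.4 to 52.8 against 24.2 to 27.9 CPM. Slc37a2 was also lower in dendritic cells, by 1.11 on the log2 scale in NOD (SE 0.13). Usp2 was 3.02 lower on the log2 scale in NOD dendritic cells than in NOD B cells and was called there, whereas in NOD.Idd2 it was not called.

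**Figure D4:**
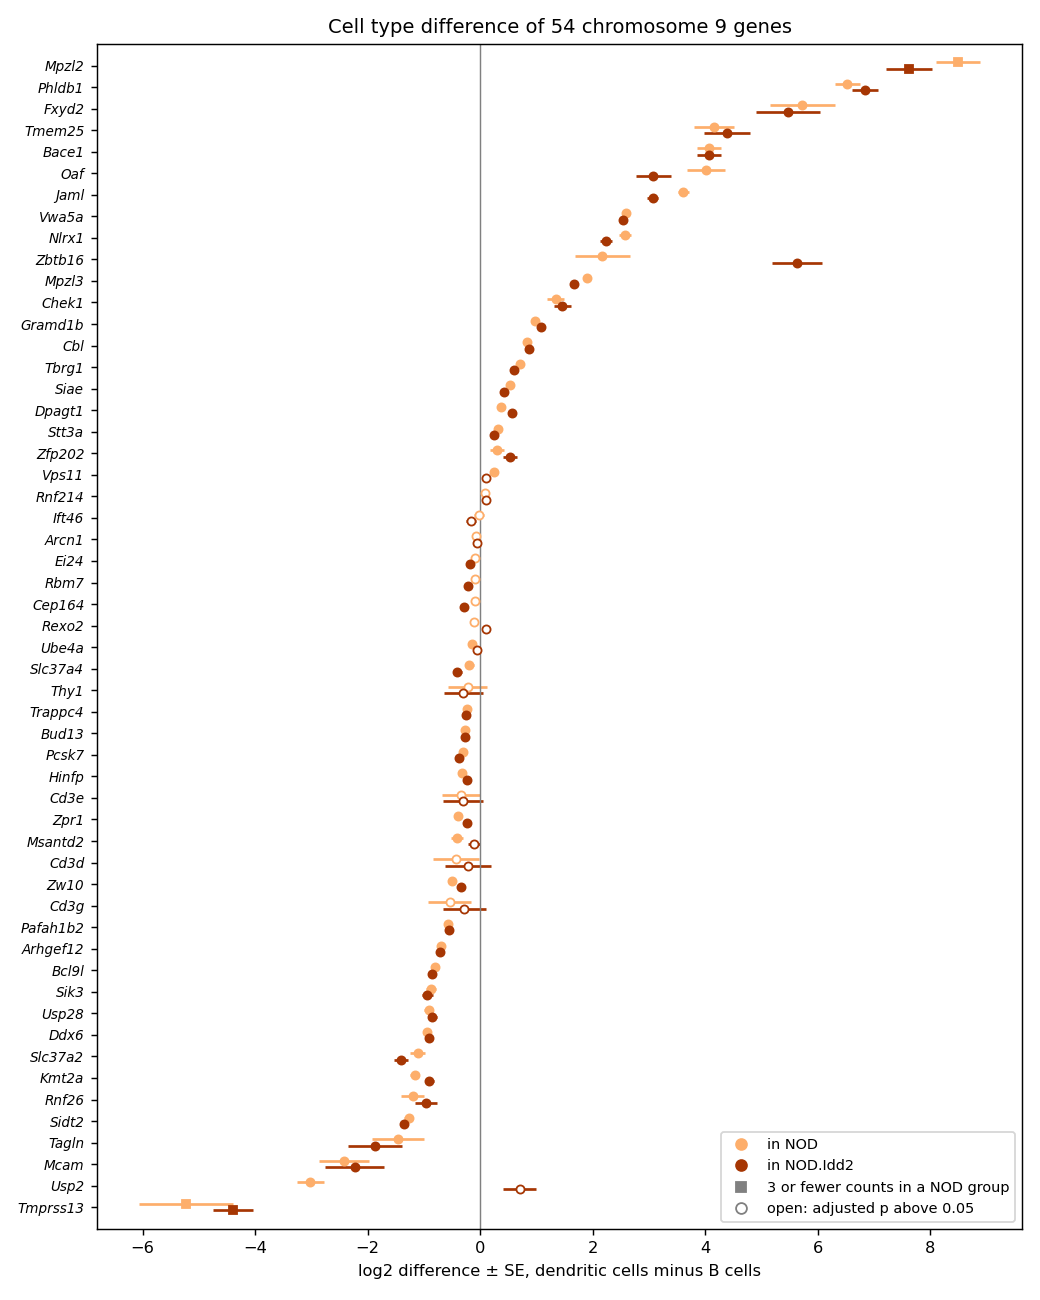
Log2 difference (dendritic cells minus B cells) with its SE for the 54 tested genes, in NOD and in NOD.Idd2, ordered by the value in NOD; open points did not pass an adjusted p of 0.05 and squares mark genes with 3 or fewer counts in a NOD group, whose fitted value is no bound. Mpzl2, Phldb1 and Bace1 lie at the dendritic cell side and Tmprss13 and Usp2 at the B cell side in NOD.

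Robo4, Abcg4 and Ncam1 were too low for any test, with 0 to 6 counts per library. Exons of 28 of the 57 genes overlap exons of another annotated gene, 27 of them on the opposite strand, and the sources used here do not say whether counting used strand, so reads of such pairs may not be told apart.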

How the data were processed

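Poly(A)-selected libraries were made with a KAPA kit from Trizol-extracted RNA, per the labels' protocols. Alignment software is given as STAR (version given as 0.12.2) and the build as GRCm38, per the submitters' processing notes. How reads were counted, with which annotation and whether by strand, is not stated in the sources used here. Raw counts were deposited, whole numbers per gene symbol, and these were used as deposited; the authors' normalized table was not used. Groups and replicate numbers came from the sample titles.

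The genes and lists described were chosen with earlier results of these data known. CPM were scaled by TMM over all 12 libraries in edgeR 4.0.16 (R 4.3.3). Genes were kept by filterByExpr (minimum count 10, minimum total 15). Strain comparisons used the quasi-likelihood test of edgeR within each cell type (6 libraries). The difference of strain effects and the cell type comparisons came from contrasts in 1 fit over the 12 libraries. P-values were adjusted over all genes tested, with a threshold of 0.05. Each SE given is the log2 fold change, without its sign, divided by the square root of the F statistic of its test. These SE are not standard errors of the model and may not match the p-value beside them. Positions are from GENCODE M21 and RefSeq on GRCm38. Intervals cover counting error only, and the floor of 3 counts covers only that of the group at 0.

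Named genes were those called in a strain comparison or in the difference, the 5 uncalled genes with the smallest p in each strain comparison, the 6 highest and 6 lowest of the NOD cell type comparison with at least 5 CPM, and Cd3e, Cd3d, Cd3g and Thy1. Others are given for their role, position or level.

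The labels number replicates 1 to 3 in both strains. Deviations from the group mean in B cells correlated between libraries of the same number at 0.617, 0.407 and 0.815, each above 0.1, so the block is given beside B cell results it changes. NOD replicate 1 also correlated with NOD.Idd2 replicate 2 at 0.427, and NOD replicate 2 with NOD.Idd2 replicate 1 at 0.466. Alternatives were DESeq2 1.42.0, RLE size factors, no filter, a filter at 1 CPM in 3 libraries, the fit of 12 libraries, the block, and each library or both replicate 3 B cell libraries left out.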

Additional observations from a re-analysis of the deposited data

Results flagged for a closer look

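The strain effect on Usp2 differed between the cell types by a test of the difference itself (adjusted p = 0.0030, edgeR, a log2 difference of 3.72). The cell types also differed in sex, so cell type and sex cannot be told apart in this difference. The gene fell in NOD.Idd2 B cells, where all 3 libraries lay below the 3 NOD libraries, while the ranges of the dendritic cell groups overlapped at 0.341 to 0.399 CPM. Usp2 had 3 to 11 counts in each dendritic cell library.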

How the results depend on the processing

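In B cells the count of called genes over the whole table, 24, was 77 with DESeq2, 42 in the fit of all 12 libraries, 156 with the replicate block and 46 without replicate 3 of both strains, and 13 to 18 with each library left out. The count among the chromosome 9 genes, 3, was 5 with DESeq2 and 5 with the block, and 3 to 4 with a library left out. Without replicate 3 of both strains Slc37a2, Tmprss13 and Usp2 were called, at log2 fold changes of 1.78, 3.65 and -3.90. Gramd1b in B cells passed in 5 of 7 alternatives other than leaving out 1 library.

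In dendritic cells the count over the table, 186, was 286 with DESeq2, 94 in the fit of 12 libraries, 700 with no filter, and 63 to 332 with a library left out (77 without the shallow NOD.Idd2 replicate 3, 332 without NOD replicate 3). The count among the chromosome 9 genes, 4, was 8 with no filter and 2 to 5 with a library left out, being 2 without NOD.Idd2 replicate 3, where Slc37a2 and Zbtb16 were called. Same-numbered dendritic cell libraries correlated at -0.00363, 0.0133 and 0.0539, so their numbers are not taken as pairs; the replicate block gave 214 genes over the table and 5 of the list. Mpzl2 passed with DESeq2 (adjusted p = 0.00603), no filter (7.8e-07) and the block (0.0132), and Mpzl3 with DESeq2 (0.0422), the fit of 12 libraries (0.0200) and no filter (0.0227).

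For the difference of strain effects the count of 18 was 112 with DESeq2, 33 with no filter, 56 with the block and 7 to 19 with a library left out, and the count of 1 in the list was 3, 2 and 2 under the first 3 of these. The uncalled differences for Zbtb16 and Jaml each passed in 2 of 5 alternatives other than leaving out 1 library, for Jaml the block among them. Neither passed with any 1 library left out. The counts of the cell type comparisons stayed within 1.5 times under the alternatives run. Leaving out 1 library turned the sign of uncalled genes: Cd3d (-0.45 to 0.56), Cd3e (-0.45 to 0.31) and Cd3g (-0.61 to 0.31) in B cells, and Cd3e (-0.22 to 0.20), Cd3g (-0.0208 to 0.43), Kmt2a (-0.0885 to 0.0391) and Zw10 (-0.0290 to 0.0773) in dendritic cells. The uncalled difference for Tmprss13 was -0.18 with DESeq2. The cause was not tested. In dendritic cells Usp2 had 3 to 11 and Tmprss13 0 to 3 counts per library, and neither was tested between the strains there.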
